A study of Mus musculus with 2 samples.

Results

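Pi16 and Dpp4 fibroblasts are a stromal population that was picked out of single-cell RNA profiles of the mouse mammary gland by 4 genes, Pi16, Dpp4, Smpd3 and Wnt10b. The rule found 1740 member barcodes among 8278 fibroblast barcodes and 23733 deposited barcodes in all. There were 1024 members of 4173 fibroblast barcodes in the Gpm6a knockout (KO) library and 716 of 4105 in the wild-type (WT) library. A fibroblast barcode had at least 1000 unique molecular identifiers (UMIs, each counting 1 captured RNA molecule), at least 500 genes and at most 10% mitochondrial UMIs. It also had Col1a1, Col3a1 and Dcn together at 40 or more per 10000 UMIs, and no UMI of Ptprc, Epcam or Cdh5, which mark immune, epithelial and endothelial cells. Members were chosen by these measured genes: they detected at least 2 of the 4 genes (set A) and more of them than of any of 4 other sets. Set B was Scg3, Adam12, Bmper and Enpep, set C was Stra6, Crabp1, Col13a1 and Mmp11, set D was Vit, Clec11a, C2 and Gdf10, and set E was Rxfp2, Rspo3, Chrdl2 and Myoc.

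The libraries came from the 4th mammary gland of virgin female C57BL/6 mice aged 6 to 8 weeks, 1 library from mice with a deletion of Gpm6a and 1 from wild-type mice. The labels name 3 littermates per genotype and a sort for living, DAPI-negative cells after collagenase digestion. They give neither the deleted part of Gpm6a, nor the cells in which it was deleted, nor whether the 3 animals were pooled. With 1 library per genotype, no difference between KO and WT has a replicate check, and none was tested: genotype and library cannot be told apart.

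As background, fibroblasts that express Pi16 and Dpp4 have been described in many mouse tissues as cells of adventitia and interstitial connective tissue. In subcutaneous and mammary fat, Dpp4-positive stromal cells are known as progenitors that can give rise to committed preadipocytes, which carry genes such as Icam1, Pparg and Col15a1. Pi16 encodes a secreted peptidase inhibitor, and Dpp4 a cell-surface peptidase also called CD26. Smpd3 encodes neutral sphingomyelinase 2, Wnt10b a Wnt ligand that restrains adipogenesis, and Scara5 a scavenger receptor for ferritin.

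The promoters of Pi16 and Dpp4 are shown because these genes name the population and were found in the same barcodes. Each runs from 250 bases before to 50 bases after the RefSeq start on GRCm38.p6, 5′ to 3′ on the gene's strand, and capitals mark matches to 5 motifs searched on both strands. The TATA box was spelled TATAAA and the GC box GGGCGG. The third motif was the CCAAT box, by its own letters, and the AP-1 site was spelled TGANTCA. The amino acid response element, bound by Atf4 and its partners, was spelled TGATGNAA, and none of these motifs lies within another. Pi16 lies at chr17:29318632-29318931 on the + strand and Dpp4 at chr2:62412182-62412481 on the - strand.
Pi16 promoter: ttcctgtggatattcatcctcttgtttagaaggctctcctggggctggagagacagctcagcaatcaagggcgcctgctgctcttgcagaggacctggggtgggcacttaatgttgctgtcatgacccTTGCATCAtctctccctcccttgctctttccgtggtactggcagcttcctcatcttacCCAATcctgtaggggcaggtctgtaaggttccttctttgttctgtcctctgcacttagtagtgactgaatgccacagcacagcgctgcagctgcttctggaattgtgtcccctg
Dpp4 promoter: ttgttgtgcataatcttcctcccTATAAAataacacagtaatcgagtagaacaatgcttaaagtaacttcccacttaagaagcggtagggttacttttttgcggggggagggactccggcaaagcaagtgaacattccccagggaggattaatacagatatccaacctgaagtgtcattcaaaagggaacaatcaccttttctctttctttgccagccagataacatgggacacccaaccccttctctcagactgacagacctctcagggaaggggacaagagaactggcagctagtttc
The Pi16 window held a match to the amino acid response element, read on the other strand and starting at base 129, and 1 CCAAT box at base 187. The Dpp4 window held 1 TATA box at base 24, far upstream of the start. Of 32851 mouse promoter windows of this length, 3.97% held the amino acid response element, 37.4% the CCAAT box and 13.6% the TATA box, and a match is a description only. In GENCODE M21 on GRCm38, Pi16 (ENSMUSG00000024011) is a protein-coding gene on chromosome 17 from 29317680 to 29330593, and Dpp4 (ENSMUSG00000035000) one on chromosome 2 from 62330073 to 62412231.

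The members held 8846695 UMIs in the KO library and 8387149 in the WT library. A KO member had a median of 8539 UMIs and 2653.5 genes, and a WT member 11733 UMIs and 3208 genes. The KO members were thus the shallower ones, and the range was 1000 to 23760 UMIs in KO and 1014 to 31044 in WT. Scrublet called 17 KO (1.66%) and 13 WT (1.82%) members doublets, and they were kept. The libraries shared 33 barcode sequences in all and none between their members. Levels below are UMIs summed over a group per 1000000 UMIs (CPM), with 95% exact Poisson intervals in brackets. Shares carry 95% exact Clopper-Pearson intervals, and all these intervals cover counting error only.

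The rule largely fixed how often members held the genes of the name. Pi16 was seen in 99.5% of the KO members and 98% of the WT members, with a median of 19 UMIs per barcode and a highest count of 124 in KO, and 25 and 111 in WT. Dpp4 was seen in 96% of KO members and 96.4% of WT members, with a median of 4 UMIs in KO and 6 in WT. Both genes together were seen in 95.6% of KO and 94.4% of WT members. Smpd3 was detected in 84.5% of KO and 90.6% of WT members, and Wnt10b in 30.1% of KO and 38.1% of WT members. These 4 genes chose the members, so their presence is not a finding. As a measure of stray RNA, Pi16 was detected in 1.94% of KO and 3.92% of WT barcodes with Epcam, which are deeper (median 17483 UMIs in KO and 19042 in WT).

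Scara5, the marker that the rule did not use, was detected in 91.1% (89.2 to 92.8%) of KO and 89.2% (86.7 to 91.4%) of WT members. In barcodes led by set D it was found in 46.7% in KO and 40.4% in WT, and in those led by set B in 34.1% in KO and 28.9% in WT. It was rarest with set C, at 5.08% in KO and 7.03% in WT, and stood at 13.6% in the WT barcodes of set E. Barcodes with Epcam gave 3.31% in KO and 2.32% in WT. Its summed level in members was 451 (437 to 465) CPM in KO and 406 (392 to 420) CPM in WT, against 150 CPM in KO and 96 CPM in WT for set D, the nearest set. The members therefore ranked first for Scara5 in both libraries, before sets D, B and C.

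Members with all 4 set A genes numbered 251 in KO and 249 in WT, those with 3 numbered 625 in KO and 384 in WT, and those with 2 numbered 148 in KO and 83 in WT. The detected number moved with depth: KO members with 4, 3 and 2 genes had a median of 8938, 8692 and 6508 UMIs, and WT members 12706, 11649.5 and 6694. Just inside the threshold, KO members with 2 set A genes had Scara5 at 315 CPM and Col15a1 at 149 CPM, and WT members had 154 and 265 CPM. Just outside it were 139 KO and 175 WT barcodes that had at least 2 set A genes but no lead over every other set. These had Scara5 at 205 CPM in KO and 163 CPM in WT, and Col15a1 at 319 CPM in KO and 486 CPM in WT. In the WT library the barcodes on both sides of the threshold thus had similar Scara5 levels, and members with 2 genes carried more Col15a1 than those with 3 or 4. Genes of the other sets were also present: 49.3% of KO and 57.7% of WT members had a UMI of a set D gene, and 26.8% of KO and 18.9% of WT members had none of sets B to E.

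**Figure D1:**
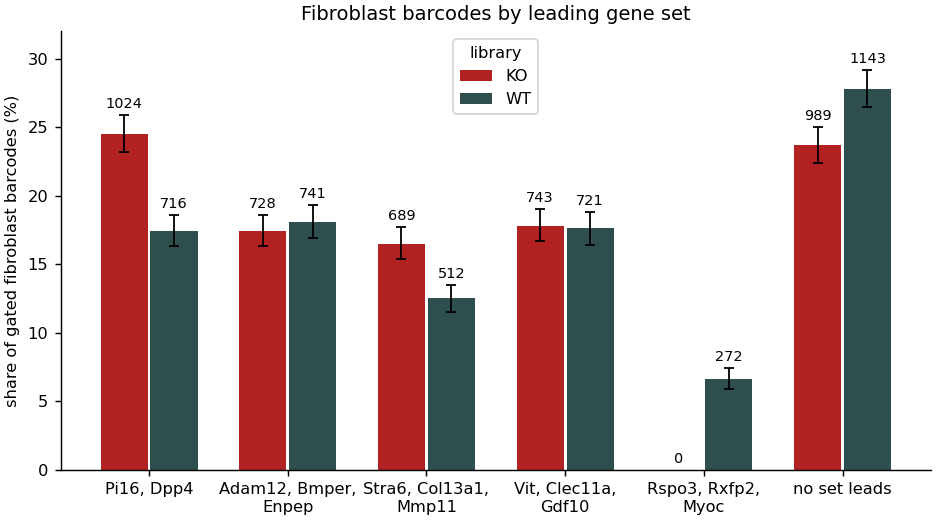
Share of fibroblast barcodes led by each gene set (vertical axis, %), by set (horizontal axis, named by its leading genes), in the KO (red, left) and WT (dark grey-green, right) libraries; bars start at 0, error bars are exact 95% intervals, and numbers are barcodes. Pi16 and Dpp4 barcodes made up 24.5% in KO and 17.4% in WT, and the Rspo3 set had no KO barcode.

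Members made up 24.5% (23.2 to 25.9%) of the fibroblast barcodes in the KO library and 17.4% (16.3 to 18.6%) in the WT library. The intervals for counting error did not overlap, but each genotype is 1 library, so the spread between animals is not known. Set E had no KO barcode among 4173, which allows a share of up to 0.0719%, and 272 WT barcodes (6.63%), so the WT denominator held a group that the KO denominator lacked. With set E left out of the denominator, the WT share was 18.7% (17.5 to 20%). After each barcode was thinned to 2000 UMIs, with shallower ones left out, members were 21.5% in KO and 16.5% in WT.

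**Figure D2:**
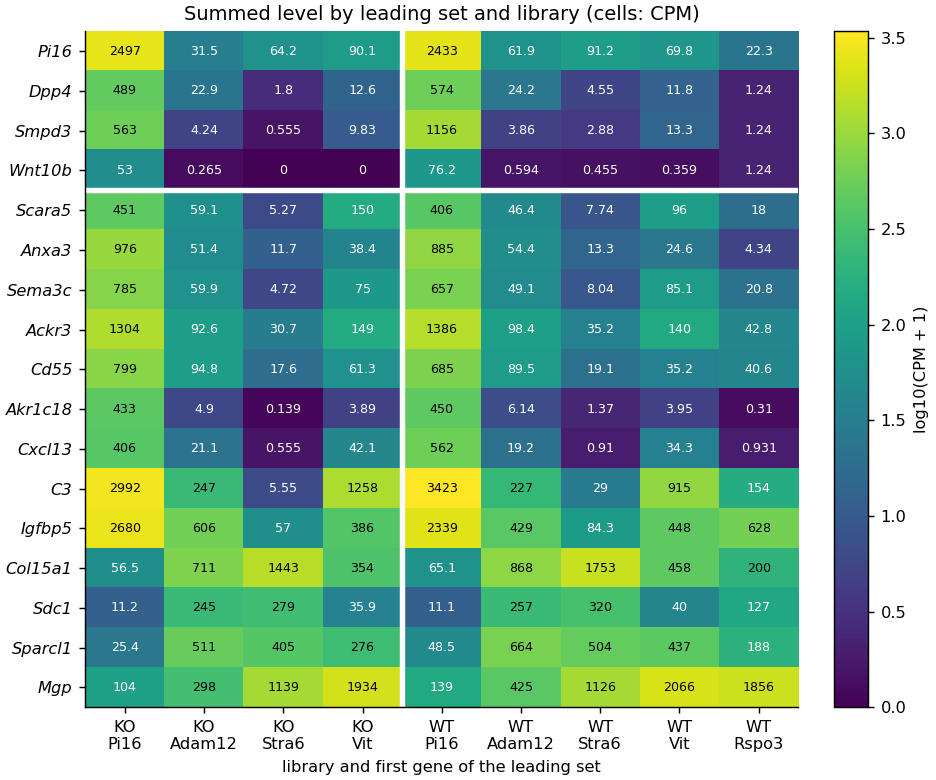
Summed level (CPM, printed in each cell, colour on a log10(CPM + 1) scale) of 17 genes (rows) in barcodes led by each set (columns, by first gene), KO to the left of WT; the white line sets off the 4 genes of the rule. Scara5 stood at 451 CPM in KO and 406 CPM in WT members, and Col15a1 at 56.5 CPM in KO and 65.1 CPM in WT members.

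The members were set against all other fibroblast barcodes, 3149 in KO and 3389 in WT. This is a description with no test, since measured genes chose the members. Of 11556 genes with at least 50 UMIs in each library, 530 (4.59%) were at least 2-fold higher in members in both libraries and 907 (7.85%) at least 2-fold lower. Ratios are log2 of members over other fibroblasts with 1 CPM added to each, and are given for KO and then for WT. Lists of genes below were counted over genes with at least 20 UMIs, of which 4.45% were at least 2-fold higher in members in both libraries and 7.21% at least 2-fold lower.

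Genes listed for Dpp4-positive interstitial progenitors stood high together. This list and those below were chosen with earlier results of these data known. Their counts describe the members and are no support for a name. Of 32 listed genes, 28 were at least 2-fold higher in members in both libraries, with a median log2 ratio of 2.35 in KO and 2.49 in WT, against medians of -0.18 in KO and -0.13 in WT over all genes. Anxa3, a calcium-dependent phospholipid-binding protein, stood at 976 CPM in KO members and 45.5 CPM in other KO fibroblasts, and at 885 and 40.9 CPM in WT. Sema3c, a secreted semaphorin, had 785 CPM in KO members and 51.4 CPM in other KO fibroblasts, and 657 and 48.8 CPM in WT. Cd55, which protects cells from complement, had 799 CPM in KO members and 69.6 CPM in other KO fibroblasts, and 685 and 56.9 CPM in WT. The stem cell antigens Ly6a and Cd34 differed less, with log2 ratios of 1.72 and 2.18 for Ly6a and 1.54 and 1.69 for Cd34. Tppp3 went the other way, at -0.61 and -0.47, and Emb, which encodes embigin, was 0.60 in KO and -2.18 in WT. Emb had 1032.4 CPM in the WT barcodes of set E, which the KO library lacked. Set D shared Ly6a, at 2156.9 CPM in KO and 1299.8 CPM in WT, against 2295.2 and 1963.0 CPM in members. Il33, also listed, was higher in set D (372 CPM in KO and 260 CPM in WT) than in members (185 and 144 CPM). Anxa3, Sema3c and Cd55 were far lower in set D than in members, with Anxa3 at 38.4 CPM in KO and 24.6 CPM in WT.

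Among genes outside the rule, Akr1c18 had the highest ratio in both libraries. It encodes 20-alpha-hydroxysteroid dehydrogenase, which inactivates progesterone. Akr1c18 stood at 433 (419 to 447) CPM in KO members and 8.02 CPM in other KO fibroblasts, and at 450 (436 to 465) CPM in WT members and 7.11 CPM in other WT fibroblasts. It was found in 70.3% of KO and 73.2% of WT members. Il18, an inflammasome-processed cytokine, had log2 ratios of 4.26 and 4.91. Cxcl13, the B cell chemokine, had 3.89 and 4.80 and was found in 48.1% of KO and 53.6% of WT members. Ackr3, a scavenging receptor for Cxcl12, stood at 1303.7 CPM in KO members and 103 CPM in other KO fibroblasts, and at 1385.9 and 103 CPM in WT. Cxcl12 itself was lower in members, with ratios of -1.35 and -1.46. The angiopoietin receptor Tek (3.11 and 3.43), the decoy interleukin-1 receptor Il1r2 (3.09 and 3.78), the transcription factor Irf4 (3.76 and 3.53) and the proprotein convertase Pcsk6 (3.53 and 3.33) were high too. So were Limch1, Ecscr, Efhd1, Bmp8a, Car8, Mgll, Sbsn, Nptx2 and Sema3d, with ratios between 3.02 and 4.56.

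**Figure D3:**
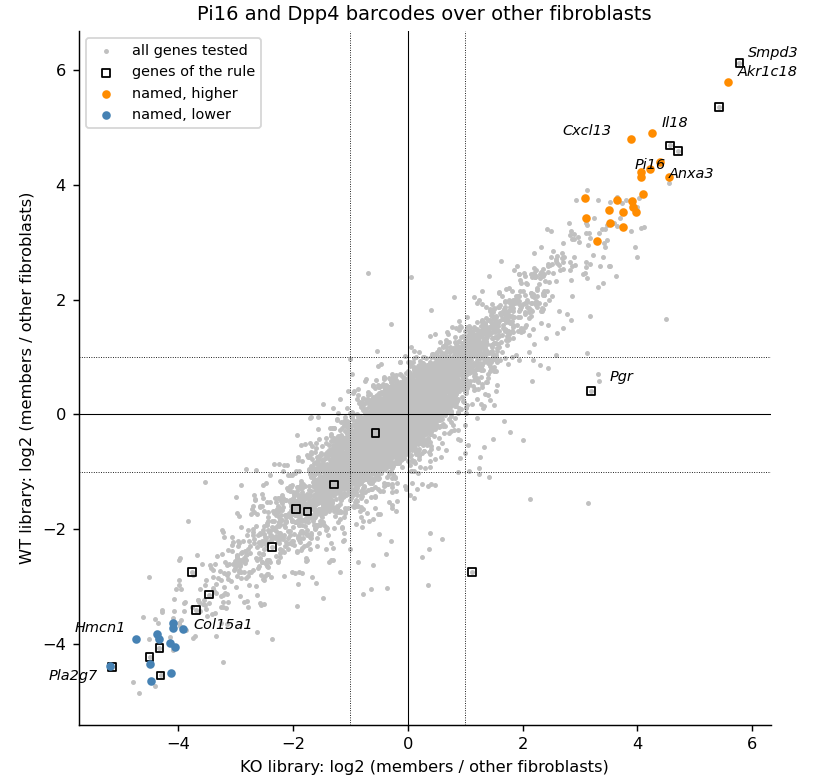
Log2 ratio of members over other fibroblasts for each of 11556 genes (grey points) in the KO library (horizontal axis) and the WT library (vertical axis); orange and blue points are the named higher and lower genes, squares are genes of the 5 sets, dotted lines mark 2-fold. Akr1c18 lies at 5.59 and 5.80, while Pgr lies at 3.33 in KO but 0.58 in WT.

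Committed preadipocyte genes ran in the opposite direction. Of 16 listed, 14 were at least 2-fold lower in members in both libraries, with medians of -1.97 in KO and -1.75 in WT. Col15a1, a collagen of basement membrane zones, stood at 56.5 CPM in KO members and 867 CPM in other KO fibroblasts, and at 65.1 and 881 CPM in WT. Apoe and Lpl, which carry and hydrolyse lipoprotein lipids, had ratios of -3.06 and -2.27 for Apoe and -1.90 and -1.76 for Lpl. The WT barcodes of set E held less Lpl than WT members, at 66.7 CPM against 348 CPM. They held more Apoe, at 374 CPM against 141 CPM. Pparg, the main adipogenic transcription factor, was at 6.22 CPM in KO members and 15.0 CPM in other KO fibroblasts, and at 6.92 and 15.9 CPM in WT. Pparg in set D, at 5.72 CPM in KO and 5.92 CPM in WT, lay within the intervals of members (4.68 to 8.09 and 5.25 to 8.94 CPM). The WT barcodes of set E, at 5.58 CPM, lay within that of WT members. Pparg was highest in set B, at 26.5 CPM in KO and 28.4 CPM in WT. Fabp4, also listed, was lower in set C (20.8 and 29.4 CPM) than in members (29.5 and 34.8 CPM), as were Icam1 and Smoc2. For Fabp4, the barcode with the most UMIs held 40.6% of those in KO members and 17.1% of those in WT members. The order of set C and members for Fabp4 thus leans on these barcodes, and was not tested without them. Col15a1 was above the members in every other set, lowest in the WT barcodes of set E, at 200 CPM. The mature adipocyte genes Adipoq, Plin1, Cidec and Lep had no UMI in members of either library, which allows up to 0.339 CPM in KO and 0.358 CPM in WT.

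The lowest named genes were of several kinds. Pla2g7, a phospholipase that degrades platelet-activating factor, had ratios of -5.19 and -4.38. Sdc1, the heparan sulphate proteoglycan syndecan-1, stood at 11.2 CPM in KO members and 202 CPM in other KO fibroblasts, and at 11.1 and 201 CPM in WT. The thrombin receptor F2r (-4.15 and -3.99), the lysophosphatidic acid-producing enzyme Enpp2 (-4.38 and -3.82), complement C5 (Hc, -4.50 and -4.35) and Lrrc15 (-4.34 and -3.92) were also low. The matrix genes Hmcn1, Egflam and Col7a1, with Gcnt4 and Rgs2, had ratios between -4.73 and -3.64. Lrrc15 stood at 5.88 CPM in KO and 5.84 CPM in WT members, and at 6.17 and 5.56 CPM in set D. Col7a1 stood at 7.69 CPM in KO and 7.15 CPM in WT members, and at 7.77 and 8.26 CPM in set D. Pla2g7 and Hc were lower in the WT barcodes of set E (1.24 and 4.34 CPM) than in WT members (2.38 and 8.47 CPM). Sdc1 was higher in set D than in members, at 35.9 CPM in KO and 40 CPM in WT.

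The matrix program divided by component. Of 11 basement membrane genes, 4 were at least 2-fold lower in members in both libraries and none higher, and Col4a1 stood at 300 CPM in KO members and 1236.3 CPM in other KO fibroblasts, and at 422 and 1405.3 CPM in WT. Nid1, by contrast, was higher in members, at 0.79 and 0.84. The WT barcodes of set E held less Col4a1 than WT members, at 200 CPM. They also held less Col4a2, at 81 CPM against 129 CPM, but more Col15a1. Of 11 fibrillar and associated collagens, Col14a1 alone was at least 2-fold higher in both (1.51 and 1.47), and Col6a2 and Col12a1 were at least 2-fold lower. Genes of hyaluronan synthesis stood high: Ugdh, which makes its sugar precursor, had 3313.9 CPM in KO members and 1202.9 CPM in other KO fibroblasts, and 3029.5 and 1339.7 CPM in WT. The hyaluronan synthase Has2 had ratios of 2.20 and 1.23, and Has1 of 1.26 and 0.98. Set D shared much of this, with Ugdh at 2247.0 CPM in KO and 2216.3 CPM in WT. Has1 stood at 1485.2 CPM in KO and 1294.7 CPM in WT members, and at 1161.2 and 1222.2 CPM in set D. Has2 stood at 353 CPM in KO and 306 CPM in WT members, and at 97.2 and 115 CPM in set D. The WT barcodes of set E held more Has2 than WT members, at 409 CPM, and less Has1, at 196 CPM. Of 14 measured proteoglycan and hyaluronan genes, 6 were at least 2-fold higher in both libraries and 2 lower. In the elastic fibre list, Fbn1 (fibrillin-1), Emilin2 and Efemp1 were at least 2-fold higher in both, while Mfap4, Fbn2 and Emilin1 were at least 2-fold lower. Among the other sets, set B came closest for Efemp1, at 616 CPM in KO and 562 CPM in WT, against 825 and 803 CPM in members. The protease inhibitors Timp2 (1.58 and 1.54) and Timp3 (2.16 and 2.07) were higher, and Timp1 (-1.61 and -1.98) was lower.

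Several signalling genes differed between members and other fibroblasts. Among Wnt pathway genes, Wnt2 and the inhibitors Sfrp2, Sfrp4 and Dkk2 were at least 2-fold higher in both libraries, while the receptor Fzd1 and the antagonist Dkk3 were among 4 that were at least 2-fold lower. Sfrp4 stood at 546 CPM in KO members and 103 CPM in other KO fibroblasts, and at 504 and 132 CPM in WT. Set D was close to the members for Sfrp4, at 393 CPM in KO and 349 CPM in WT. Of 10 Hedgehog genes, 6 were at least 2-fold lower and none higher, among them the receptor Ptch1, the decoy Hhip and the effectors Gli1 and Gli2. Igfbp5, which binds insulin-like growth factors, stood at 2679.6 CPM in KO members and 376 CPM in other KO fibroblasts, and at 2339.3 and 372 CPM in WT, with 386 CPM in KO and 448 CPM in WT for set D. Fgf2 had ratios of 2.60 and 1.42, and the fibroblast growth factor Fgf18 of 1.77 and 1.99.

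Complement and interferon genes were partly high. C3, the central complement component, stood at 2992.5 (2956.6 to 3028.8) CPM in KO members and 425 CPM in other KO fibroblasts, and at 3423.0 (3383.5 to 3462.8) CPM in WT members and 340 CPM in other WT fibroblasts. C4b, Cfb and the C1 inhibitor Serping1 were the other complement genes at least 2-fold higher in both libraries, 4 of 12 measured, and Cd59a was the 1 that was lower. Set D also held these genes, with C3 lower than in members, at 1257.9 CPM in KO and 915 CPM in WT. Cfb stood at 168 CPM in KO and 129 CPM in WT members and at 183 and 144 CPM in set D. Serping1 stood at 2063.1 CPM in KO and 2248.8 CPM in WT members, and at 2652.6 and 2411.4 CPM in set D. Of 14 interferon-stimulated genes, 5 were at least 2-fold higher in members in both libraries and none lower, namely Irf7, Oas1a, Rsad2, Bst2 and Usp18. Rsad2 stood at 48.4 CPM in KO and 60.3 CPM in WT members, and at 74.8 and 54.7 CPM in set D.

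The sex steroid receptor genes Esr1 and Pgr were higher in members in both libraries, but the list of stromal hormone receptors was mixed. Of its 10 genes, 5 were above 0 and 4 below 0 in both libraries, with medians of -0.04 in KO and 0.11 in WT. Only 1 was at least 2-fold higher in both and 1 at least 2-fold lower. Esr1, the oestrogen receptor, stood at 138 CPM in KO members and 47.0 CPM in other KO fibroblasts, and at 145 and 85.9 CPM in WT. Pgr, the progesterone receptor, stood at 25.3 (22.1 to 28.9) CPM in KO members and 1.63 CPM in other KO fibroblasts, and at 55.8 (50.9 to 61.1) CPM in WT members and 37.1 CPM in other WT fibroblasts. In the WT library most of that level came with set E, at 259 CPM, against 7.72 CPM in set B, 2.58 CPM in set C and 8.62 CPM in set D. Pgr was seen in 11.5% of KO and 19.7% of WT members. Kdr, the VEGF receptor-2 gene of endothelium, followed the same order, with 39.6 CPM in KO members and 62.7 CPM in WT members, against 153 CPM in the WT barcodes of set E. Myoc, a set E gene, was at 280 CPM in KO and 366 CPM in WT members, against 1760.4 CPM in set E.

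Within members, KO was then compared with WT, a contrast that the rule did not use apart from the genes that chose the members. Of 10139 genes with at least 50 UMIs over both libraries, 39 (0.385%) were at least 2-fold higher in KO and 131 (1.29%) at least 2-fold lower. The median log2 ratio of KO over WT was -0.10, with 90% of genes between -0.63 and 0.47. Scaling by edgeR's TMM factors or DESeq2's median of ratios moved that median to 0.01 and gave 60 genes higher and 102 lower with either. Among other fibroblasts, 22 (0.217%) of these genes were at least 2-fold higher in KO and 155 (1.53%) at least 2-fold lower. The 2 populations shared 9 higher genes, 23.1% of those in members and 40.9% of those in other fibroblasts, and 63 lower genes, 48.1% and 40.6%. Other WT fibroblasts included the 272 barcodes of set E, which the KO library lacked. The counts in other fibroblasts and the shared parts thus also carry a difference in make-up, whose size was not tested. In bulk sums of this kind, a change in the make-up of the members and a change within cells cannot be told apart.

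RNA of other cell types differed between the member sums of the 2 libraries, and for skeletal muscle and mural markers in other fibroblasts too. All 8 skeletal muscle genes were at least 2-fold lower in KO, with a summed level of 9.16 CPM in KO and 378 CPM in WT. Acta1 stood at 1.47 CPM in KO and 146 CPM in WT, and 1 barcode held 75.2% of its WT UMIs. Mural (pericyte and smooth muscle) markers summed to 90.3 CPM in KO and 214 CPM in WT, with 5 of 8 measured at least 2-fold lower, and Myh11 stood at 5.54 CPM in KO and 39.8 CPM in WT. The 8 mesothelial markers summed to 40.6 CPM in KO and 50 CPM in WT, most of it Krt19, a keratin that epithelium also expresses, at 40 CPM in KO and 31.4 CPM in WT. The other 7 (Upk3b, Msln, Wt1, Lrrn4, Upk1b, Gpm6a and Muc16) were at most 0.339 CPM in KO, where 4 had no UMI, and at most 5.37 CPM in WT. Immune markers summed to 44.0 CPM in KO and 17.3 CPM in WT, and Cd74 was at 16.7 CPM in KO and 3.46 CPM in WT. Summed levels were 122 CPM in KO and 132 CPM in WT for epithelial markers, 76.1 and 117 CPM for endothelial markers, 24.6 and 39.0 CPM for Schwann cell markers, 65.3 and 54.7 CPM for tendon and cartilage markers, and 0.452 and 7.51 CPM for adipocyte markers. In other fibroblasts, skeletal muscle markers summed to 8.24 CPM in KO and 364 CPM in WT, and mural markers to 123 and 346 CPM. Immune markers went the other way there, at 35.6 CPM in KO and 46.1 CPM in WT. The part of all these markers in the counts of 2-fold genes was not tested.

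Gpm6a (ENSMUSG00000031517, chromosome 8, 54954843 to 55060871, + strand), the deleted gene, had no UMI in KO members, which allows up to 0.339 CPM. In WT members it had 27 UMIs in 3 of 716 barcodes, 3.22 (2.12 to 4.68) CPM, and 1 barcode held 70.4% of them. Other fibroblasts had 3 UMIs in KO and 8 in WT. Nearly all members of either genotype therefore had no Gpm6a UMI.

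**Figure D4:**
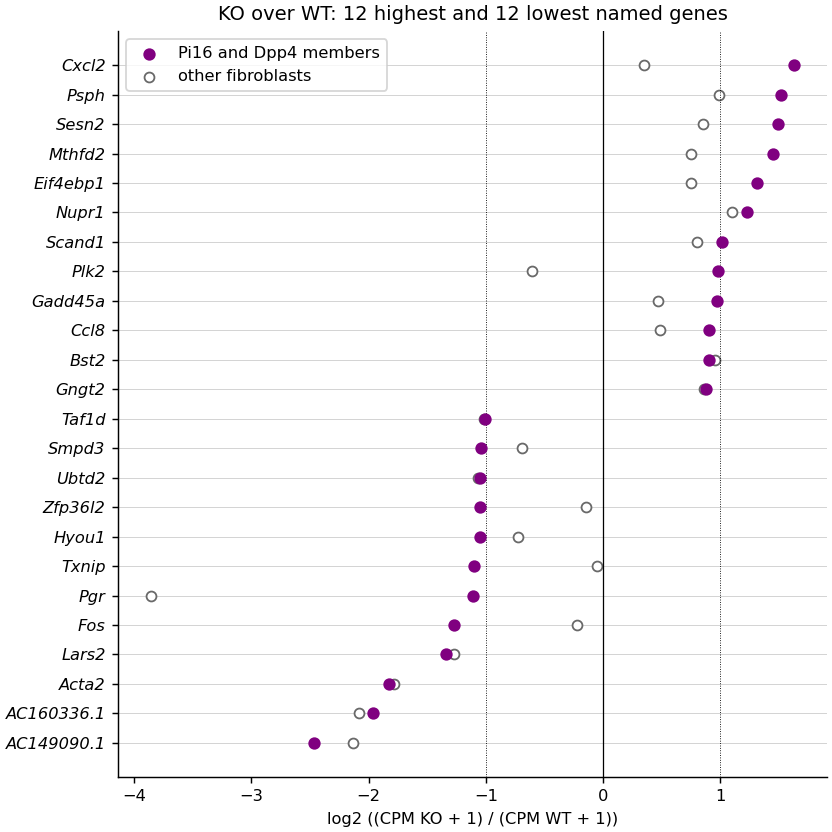
Log2 ratio of KO over WT (horizontal axis, 1 CPM added to each) for the 12 highest and 12 lowest named genes (rows), in members (filled) and in other fibroblasts (open); dotted lines mark 2-fold. Psph lies at 1.52 in members and 0.99 in other fibroblasts, and Plk2 at 0.98 and -0.61.

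Genes of the integrated stress response and amino acid supply were higher in KO members. Of 13 measured, 12 had a ratio above 0 and 5 were at least 2-fold higher, with a median of 0.72. Of all genes with at least 20 UMIs, the limit for lists, 37.3% lay above 0, 0.519% were at least 2-fold higher and 1.93% at least 2-fold lower. The median was 0.64 in other fibroblasts, so the same list was higher in KO there too. Psph, the last enzyme of serine synthesis, stood at 51.4 (46.8 to 56.4) CPM in KO and 17.3 (14.6 to 20.3) CPM in WT members. Mthfd2, a mitochondrial one-carbon enzyme, stood at 109 (102 to 116) CPM in KO and 39.1 (35.0 to 43.6) CPM in WT. Sesn2, a stress-induced inhibitor of mTORC1, stood at 69.5 (64.1 to 75.2) CPM in KO and 24.1 (20.9 to 27.6) CPM in WT, and was found in 37.4% of KO and 19.7% of WT members although KO members were shallower. Chac1, which degrades glutathione, stood at 19.4 (16.6 to 22.6) CPM in KO, from 172 UMIs, and 0.954 (0.412 to 1.88) CPM in WT, from 8 UMIs. Slc7a11, the cystine importer, stood at 24.4 CPM in KO and 5.48 CPM in WT, and the pseudokinase Trib3 at 12 CPM in KO and 2.50 CPM in WT. Asns, which makes asparagine, had a ratio of 0.99, and the regulator Atf4 one of 0.28. Slc38a2, a neutral amino acid transporter, was the exception, at 596 CPM in KO and 844 CPM in WT. Outside the list, Eif4ebp1, a repressor of translation, stood at 154 CPM in KO and 61.2 CPM in WT, and the stress-induced regulator Nupr1 at 583 CPM in KO and 249 CPM in WT.

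The promoters of Psph, Mthfd2 and Sesn2 are shown because these 3 genes of the list were higher together in KO members. They are written as above, at chr5:129787204-129787503, chr6:83317555-83317854 and chr4:132510407-132510706, all on the - strand.
Psph promoter: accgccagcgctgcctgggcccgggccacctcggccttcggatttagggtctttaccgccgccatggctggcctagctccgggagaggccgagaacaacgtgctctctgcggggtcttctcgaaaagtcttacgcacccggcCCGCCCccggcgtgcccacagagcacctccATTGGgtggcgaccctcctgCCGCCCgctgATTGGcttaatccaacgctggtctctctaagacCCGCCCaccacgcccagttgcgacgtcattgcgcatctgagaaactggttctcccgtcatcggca
Mthfd2 promoter: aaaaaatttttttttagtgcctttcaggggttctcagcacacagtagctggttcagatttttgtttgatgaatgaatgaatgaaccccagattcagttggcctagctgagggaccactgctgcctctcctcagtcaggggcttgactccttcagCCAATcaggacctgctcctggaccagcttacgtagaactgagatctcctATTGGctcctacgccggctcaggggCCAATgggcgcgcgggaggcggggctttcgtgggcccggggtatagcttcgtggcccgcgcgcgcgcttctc
Sesn2 promoter: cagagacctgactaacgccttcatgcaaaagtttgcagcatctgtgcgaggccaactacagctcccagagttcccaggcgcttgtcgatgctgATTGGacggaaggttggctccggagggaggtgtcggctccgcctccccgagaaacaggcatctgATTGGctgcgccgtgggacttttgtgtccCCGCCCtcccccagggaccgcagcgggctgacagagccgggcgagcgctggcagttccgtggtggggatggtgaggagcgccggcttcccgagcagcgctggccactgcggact
Each window held CCAAT boxes in one or both directions, and those of Psph and Sesn2 also held GC boxes, which 35.7% of promoter windows have. None held the amino acid response element as spelled above, which says only that those letters are not in these windows.

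Chemokine and cytokine genes had ratios above 0 in KO members for 12 of 18 measured, with a median log2 ratio of 0.34, against 0.10 in other fibroblasts. Of all genes with at least 20 UMIs, 37.3% lay above 0. Cxcl2, which attracts neutrophils, stood at 240 (230 to 251) CPM in KO and 77.1 (71.3 to 83.3) CPM in WT members, a ratio of 1.63. It was found in 18.3% of KO and 15.1% of WT members. The monocyte chemokine Ccl2 stood at 7858.8 CPM in KO and 5460.5 CPM in WT, and its neighbour Ccl7 at 2692.4 CPM in KO and 1769.9 CPM in WT. Ccl8 stood at 233 CPM in KO and 125 CPM in WT, and Il6 at 186 CPM in KO and 106 CPM in WT. Cxcl14 went the other way, at 21.6 CPM in KO and 44.5 CPM in WT, and so did the member marker Cxcl13, at 406 CPM in KO and 562 CPM in WT. NF-kB target genes had a median of 0.04, with Ptgs2, the inducible prostaglandin synthase, at 542 CPM in KO and 370 CPM in WT.

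Interferon-stimulated genes had a median of 0.18, with 9 of 14 above 0 and none 2-fold apart. The share of all genes above 0, here and for the ribosomal genes below, was 37.3%. Bst2 (tetherin), which holds budding virus at the cell surface, stood at 435 CPM in KO and 232 CPM in WT members, and Irf7, a master regulator of interferon genes, at 109 (103 to 117) CPM in KO and 60.4 (55.3 to 65.9) CPM in WT. Stat2 was lower, at 28.8 CPM in KO and 48.8 CPM in WT. Cytosolic ribosomal protein genes had ratios above 0 for 75 of 82 measured and a median of 0.41, and their sum was 159547.8 CPM in KO and 122277.2 CPM in WT. In other fibroblasts their median was 0.37. The remaining named higher genes were Scand1 (1.01), the growth arrest gene Gadd45a (0.97), the kinase Plk2 (0.98) and Gngt2 (0.88).

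Immediate early genes had ratios below 0 in KO members for 13 of 18, with a median of -0.25, against 0.04 in other fibroblasts. Over all genes with at least 20 UMIs 62.7% lay below 0, so the count alone does not set the list apart. Fos, an AP-1 subunit, stood at 426 (413 to 440) CPM in KO and 1028.7 (1007.1 to 1050.7) CPM in WT members, with UMIs in 44.8% of KO and 52.4% of WT members. Its partner Jun stood at 323 CPM in KO and 589 CPM in WT, and Klf2 at 283 CPM in KO and 486 CPM in WT. Egr1 and Junb had ratios of 0.16 and 0.17. Zfp36l2, an mRNA decay factor, stood at 66.6 CPM in KO and 139 CPM in WT, and Txnip, an inhibitor of thioredoxin and of glucose uptake, at 33.6 CPM in KO and 73.0 CPM in WT. Zfp36l2 and Txnip had ratios of -1.05 and -1.10 in members but -0.15 and -0.05 in other fibroblasts, a difference that was not tested. Hes1, the Notch target, stood at 187 (178 to 196) CPM in KO and 375 (362 to 388) CPM in WT. Of 7 measured Notch genes 5 were below 0, near the share of all genes.

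Several of the remaining named lower genes had similar ratios in members and in other fibroblasts, a likeness that was not tested. Lars2, a mitochondrial leucyl-tRNA synthetase, stood at 193 CPM in KO and 490 CPM in WT members (-1.34, and -1.27 in other fibroblasts). AC149090.1 (-2.47 and -2.13), AC160336.1 (-1.96 and -2.08), Ubtd2 (-1.05 and -1.07) and Taf1d (-1.01 and -1.02) were like it, and Hyou1, a chaperone of the endoplasmic reticulum, had -1.05 and -0.73. Pgr did not, with -1.11 in members and -3.86 in other fibroblasts, where the WT library held the Pgr-rich set E. Acta2, smooth muscle actin, stood at 26.6 CPM in KO and 97.3 CPM in WT, with 40% of its KO and 20% of its WT UMIs in 1 barcode each. Without called doublets its ratio was -0.91, against -1.83 with them. Of 9 measured myofibroblast genes, 5 were at least 2-fold lower in KO, all contractile genes that mural cells also express, while Postn stood at 1578.4 CPM in KO and 1610.9 CPM in WT.

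Of the 4 genes of the rule, Smpd3 alone was at least 2-fold apart between KO and WT members. Smpd3 stood at 563 (547 to 578) CPM in KO and 1155.9 (1133.0 to 1179.2) CPM in WT members, with a median of 3 UMIs in KO and 8 UMIs in WT. It is a gene of the rule, and in members without it at least 2 of the other 3 genes had to be seen. Wnt10b stood at 53.0 (48.3 to 58.0) CPM in KO and 76.2 (70.4 to 82.3) CPM in WT. Pi16 stood at 2496.9 (2464.0 to 2530.0) CPM in KO and 2432.9 (2399.6 to 2466.5) CPM in WT. Dpp4 stood at 489 (475 to 504) CPM in KO and 574 (558 to 590) CPM in WT. None of the 32 interstitial progenitor genes was 2-fold apart between KO and WT, and their median was 0.15. None of the 15 measured committed preadipocyte genes was either, with a median of -0.20. Elastic fibre genes (-0.15), collagens (-0.15), basement membrane genes (-0.23), Wnt genes (-0.30), TGF-beta and BMP genes (-0.22), complement (-0.19) and heat shock genes (-0.18) had medians between -0.30 and -0.15, where that of all genes was -0.10.

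**Figure D5:**
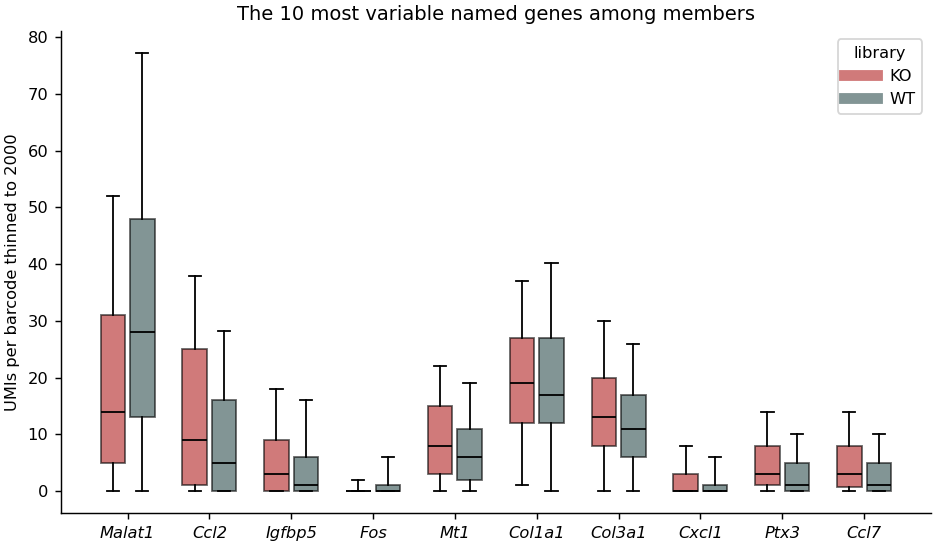
UMIs per member barcode after thinning to 2000 UMIs (vertical axis) for the 10 most variable named genes, KO (red, left, 1000 barcodes) and WT (grey-green, right, 699 barcodes); boxes span the quartiles with the median as a line, and whiskers run from the lowest value to the 90th percentile. Ccl2 had a median of 9 UMIs in KO and 5 UMIs in WT, and Fos a median of 0 in both.

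Members also differed among themselves. After thinning to 2000 UMIs, which left 1000 KO and 699 WT members, 4288 genes were seen in at least 5% of members of both libraries. Their variance over mean had a median of 1.06 in each library, close to the value of 1 that counting alone gives, and 117 genes exceeded 2 in both. Ccl2 had a variance over mean of 19.1 in KO and 18.7 in WT, with quartiles of 1 and 25 UMIs in KO and 0 and 16 UMIs in WT, and a highest count of 104 in both. Igfbp5 had 11.6 in KO and 13.4 in WT, and Fos 9.59 in KO and 23.9 in WT. Malat1, a nuclear long RNA, had 25.4 in KO and 26.3 in WT, with a median of 14 UMIs in KO and 28 UMIs in WT. The metal-binding Mt1, the collagens Col1a1 and Col3a1, the chemokines Cxcl1 and Ccl7 and the pentraxin Ptx3 completed the first 10, with values between 7.10 and 12. Col1a1 and Col3a1 also served in the fibroblast gate, so their spread is that left by the gate.

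The variable genes moved in groups across member barcodes. Ccl2 ran with Ccl7 (Spearman's rho 0.57 in KO and 0.61 in WT), Cxcl1 (0.55 and 0.47) and Ptx3 (0.48 and 0.50). Col1a1 ran with Col3a1 (0.62 and 0.63), and Igfbp5 with Pi16 (0.38 and 0.35). Col1a1 and Col3a1 belong to the fibroblast gate and Pi16 to the rule, so these values involve genes that chose the barcodes. Fos ran against Ccl2, at -0.25 in KO and -0.37 in WT. Ccl2 had small values with Pi16 (-0.05 and -0.10) and Dpp4 (-0.09 and -0.01). Both are genes of the rule, which limits their range in members. Dpp4 had a median of only 4 UMIs in KO and 6 in WT members before thinning. These values therefore cannot show whether the genes are related. These are descriptions over 1000 KO and 699 WT barcodes, each set from 1 library at equal depth, and barcodes are not replicates.

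Few members carried genes of cell division. After thinning to 2000 UMIs, at least 2 G2/M genes were found in 1 of 1000 KO members, 0.1% (0.00253 to 0.556%), and in 11 of 699 WT members, 1.57% (0.788 to 2.8%). Unthinned shares were 0.391% of KO and 2.65% of WT members. The same measure gave 0.237% of KO and 0.567% of WT barcodes in other fibroblasts, and 4.95% of KO and 6.91% of WT barcodes with Epcam. The 15 G2/M genes summed to 20 CPM in KO and 32.1 CPM in WT members. Single barcodes weighed heavily here, with 58.7% of the WT UMIs of Cenpf and 81.8% of the KO UMIs of Ccnb1 in 1 barcode each.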

How the data were processed

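The authors deposited, per library, a matrix of raw UMI counts over 32285 genes per barcode, unnormalized. Cell Ranger 5.0.1 is named in the file headers, and the submitters' processing notes add Seurat 3.2.0 and mm10. Here, barcodes were gated and assigned as described above in Python 3.11.15 (scipy 1.17.1), doublets were called by the Scrublet code in scanpy 1.11.5 (expected 0.8% per 1000 barcodes), and UMIs were summed per group. No test was made. Members and gene lists were chosen with earlier results of these data known. Gene lists used genes with at least 20 UMIs.

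Genes were named by a rule: within members, the 12 highest and 12 lowest KO over WT ratios, where the higher library reached 50 CPM with at most 20% of its UMIs in 1 barcode, and both together 100 UMIs. Against other fibroblasts, the 20 highest and 12 lowest of the weaker ratio were named, and for variation the 10 highest. Members of listed sets could be named too. Alternatives used TMM (edgeR 4.0.16) and median-of-ratios (DESeq2 1.42.0) factors in R 4.3.3. The ratio was tested on simulated data. Library totals were 139757797 UMIs in KO and 160026788 in WT. GENCODE M21 held 99.6% of gene identifiers. Promoters are from RefSeq, and Scara5 and Smpd3 were not matched there.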

Additional observations from a re-analysis of the deposited data

Results flagged for a closer look

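Plk2, a stress-responsive kinase, went in opposite directions in members and in other fibroblasts. Within members it stood at 74.6 CPM in KO and 37.4 CPM in WT, a log2 ratio of 0.98. In other fibroblasts it stood at 106 CPM in KO and 162 CPM in WT, a ratio of -0.61. The difference between the 2 groups was not tested. By leading set, Plk2 had 125 CPM in KO and 125 CPM in WT for set B, 80.5 and 107 CPM for set C, and 80.7 and 74.7 CPM for set D. The WT barcodes of set E, which the KO library lacked, had 577 CPM. After thinning members to 2000 UMIs each, the ratio within members was 0.46.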

How the results depend on the processing

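No paired analysis was possible because each genotype has 1 library, and no replicate could be left out for the same reason. Of the 24 genes named for KO against WT, none changed direction under the alternatives run, while Pi16 (0.04) ran from -0.08 to 0.15 and the medians of 4 lists between -0.11 and 0 changed sign (proteoglycans, proteases, hormone receptors and Hedgehog). That of the 4 set C genes, which had 98 UMIs in KO and 108 in WT, was -0.19, but 0.09 with members thinned to 2000 UMIs and 0.22 with at least 3 set A genes. The member share stayed higher in KO than in WT under every one: 26% and 18.9% with at least 3000 UMIs, 21% and 15.4% with at least 3 set A genes, 21.5% and 16.5% with barcodes thinned to 2000 UMIs, 26.6% and 19.5% at 5000 UMIs, and 32.2% and 24.2% of barcodes led by any of the 5 sets. With set E left out of the denominator, an alternative added after seeing the data, the WT share was 18.7%. Counts moved with the settings. Genes at least 2-fold higher in KO within members numbered 65 with 0.1 CPM added, 23 with 5 CPM, 60 with TMM or median-of-ratios factors, 17 with at least 200 UMIs and 77 with no minimum. Lower genes numbered 70 with members thinned to 2000 UMIs, when fewer genes were tested, 56 with 5 CPM added, 46 with at least 200 UMIs and 274 with no minimum. The share of higher genes among those at least 2-fold apart was 22.9%, and 37% with TMM factors. Against other fibroblasts, thinning gave 339 higher and 584 lower genes, and 5 CPM added gave 513 lower. Variance over mean rose with depth for each of the 10 named genes (Ccl2, 45.5 in KO and 46.1 in WT at 5000 UMIs), and the same 10 led. Depth limits the rest: KO members were shallower, and values under a few CPM rest on few UMIs.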
